A study of Mus musculus with 4 samples.

Results

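The cells described here are epithelial cells of the adult mouse intestine chosen for low levels of 2 enteroendocrine and 4 tuft cell genes, compared between 1 library from irradiated mice and 1 library from adult mice whose labels name no treatment. They were chosen by 5 measured limits: at least 500 detected genes, at most 20% of counts from mitochondrial genes, at least 1 count of Epcam (an epithelial adhesion protein), the enteroendocrine granule genes Chga and Chgb together under 0.1% of the cell's counts, and fewer than 2 of the tuft cell genes Dclk1, Trpm5, Avil and Sh2d6 detected. These limits held for 228 of 6287 adult barcodes and 113 of 5996 irradiated barcodes, 341 cells of 12283 in the 2 libraries and of 22731 in the whole series, which also holds 2 embryonic libraries. Counts are unique molecular identifiers (UMIs), each standing for 1 captured RNA molecule.

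Both libraries came from mice of the genotype Bmi1-GFP, in which a green fluorescent reporter sits at the Bmi1 locus; the labels give this genotype to the adult library as well as to the irradiated one. The developmental stage was adult in both, intestinal epithelial cells had been isolated by flow cytometry, and the series describes a sort for cells that express Bmi1. The labels give neither the radiation dose, the interval before sampling and the gates used, nor how many animals were taken, of which sex or exact age. Because the cells were sorted, shares of cells given below are shares of the sorted and filtered cells and not of the epithelium. Which of them were reporter-positive is not given. With 1 library per group there was no replicate check and no test between groups. Intervals are 95% and cover counting error only, and any difference between the 2 libraries, such as animal, dissociation or sort, cannot be told apart from irradiation.

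The intestinal epithelium is renewed from crypts, where Lgr5 and Olfm4 mark fast-cycling stem cells beside Paneth cells, which secrete defensins and lysozyme. Progenitors become absorptive enterocytes or secretory goblet, Paneth, enteroendocrine and tuft cells. Ionising radiation breaks DNA, which stabilises the transcription factor p53; its target genes arrest the cell cycle, feed back on p53 or start apoptosis. Regenerating crypts are known for a fetal-like gene set that includes Ly6a (Sca-1), Clu, Anxa1 and keratins.

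The selected cells held 8352912 UMIs in the adult library (median 26433.5 per cell, range 840 to 190549) and 5810920 in the irradiated library (median 40309, range 1035 to 170645), so that a gene with no UMI could still have been present at up to 0.359 and 0.516 CPM (counts per 1000000 UMIs), the level of 3 UMIs. The median mitochondrial share was 9.05% of a cell's UMIs in the adult and 4.59% in the irradiated library. The 2 libraries shared 7 cell barcodes, none of them among the selected cells. Cells just inside and just outside the limits were frequent: 53 adult and 24 irradiated cells had Chga and Chgb between 0.05% and 0.1%, against 167 and 75 between 0.1% and 0.2%, and 98 adult and 67 irradiated cells had exactly 1 tuft gene, against 39 and 43 with exactly 2. The tuft limit counts detected genes and therefore moves with depth. Of the cells left out by it, 37 adult (median 67610 UMIs) and 63 irradiated cells (median 73976 UMIs) carried the 4 tuft genes at under 0.05% of their UMIs, and a limit on that share in place of the number of genes gave 251 adult and 175 irradiated cells.

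Epcam, which chose the cells, was at 1292 CPM in the adult and 857.5 CPM in the irradiated cells. Of the epithelial genes that did not, Cdh1 (E-cadherin) was at 117 and 130 CPM and Krt8 at 1424 and 3331 CPM. Of 22 immune cell markers summing to 56.0 CPM in the adult and 22.9 CPM in the irradiated cells, Adgre1, Csf1r, Ms4a1 and S100a8 had no UMI in either, and all 217 adult UMIs of Gzma came from 1 cell. The 21 stromal, vascular, nerve and blood markers summed to 14.2 and 7.23 CPM, with 12 at 0 in both libraries, among them Col1a1, Cdh5 and Acta2, and the 15 pancreatic markers to 65.5 and 42.5 CPM, with 11 at 0 in both. Enteroendocrine RNA was not absent: 21 enteroendocrine genes summed to 4998 CPM in the adult and 3230 CPM in the irradiated cells, every selected cell of both libraries held at least 1 UMI of Sct (secretin), and 24 adult but 0 irradiated cells had no UMI of Chga or Chgb. Free RNA in the droplets and true low expression were not separated.

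The selected cells were a mixture, and the mixture differed between the libraries. A list of 20 Paneth cell genes, mostly defensins, took at least 20% of the UMIs in 55 of 228 adult cells (24.1%, exact Clopper-Pearson interval 18.7% to 30.2%) and in 45 of 113 irradiated cells (39.8%, 30.7% to 49.5%). Under stricter limits, of at least 1000 genes and at most 10% mitochondrial UMIs, these shares were 42.1% and 44.3%, so the difference in Paneth range cells depends on the limits. A list of 18 goblet cell genes took at least 5% of the UMIs in a further 2 adult cells (0.877%, 0.106% to 3.13%) and 23 irradiated cells (20.4%, 13.4% to 29.0%). In 20 irradiated cells, and in no adult cell, goblet genes passed 20% of the UMIs; the highest value was 51.4% in the irradiated and 8.96% in the adult library. Enterocyte genes took at least 2% of the UMIs in 19 adult and 2 irradiated cells, and hormone genes at least 5% in 18 adult and 3 irradiated cells. The remaining 134 adult and 40 irradiated cells passed none of these levels and are called remaining cells. All 4 are ranges of a per-cell share and not cell types; the goblet, enterocyte and hormone levels were set after the values had been seen. Few cells lay near the Paneth level: 2 adult and 5 irradiated cells had 15% to 20%, and 1 and 0 had 20% to 25%. As shares of all UMIs summed, Paneth genes took 25.1% in the adult and 44.6% in the irradiated cells, and goblet genes 0.703% and 4.75%.

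**Figure D1:**
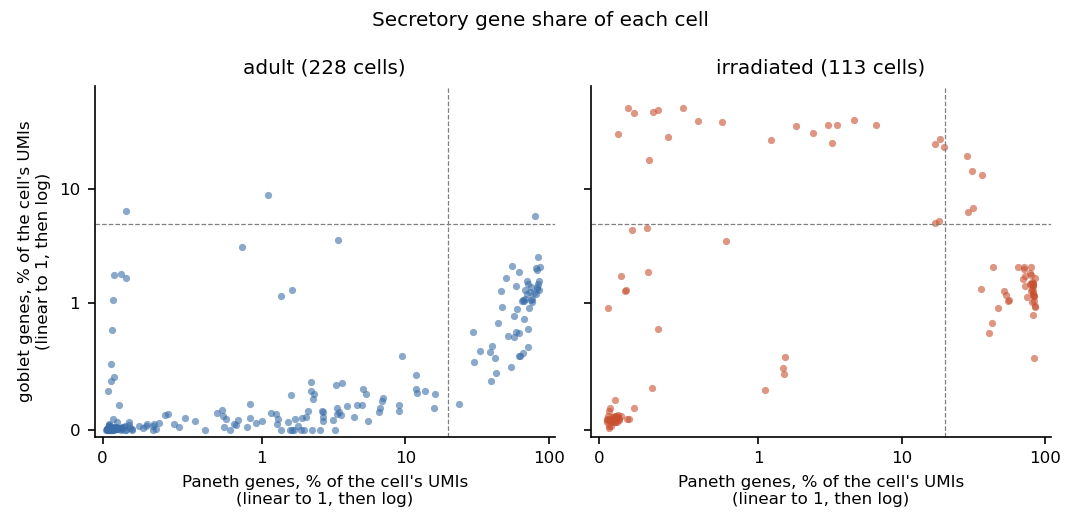
Share of each selected cell's UMIs on Paneth genes (horizontal, %) and goblet genes (vertical, %), both axes linear to 1 and logarithmic above, 1 point per cell; dashed lines mark 20% and 5%. The irradiated library has a group of 20 cells above 20% goblet UMIs that has no counterpart among the 228 adult cells.

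Summed over cells, 8531 genes had at least 50 UMIs in the library with more. Of these, 411 (4.82%) were at least 2-fold higher in the irradiated cells and 1895 (22.2%) at least 2-fold lower, on the scale log2((CPM + 1)/(CPM + 1)), irradiated over adult. The median over all 8531 genes was -0.49. CPM values sum to the same total in both libraries and Paneth and goblet genes took more of the irradiated one, so changes below are read against -0.49. Scaling with TMM factors, which are built to be less affected by a few abundant genes, moved that median by 0.40 to -0.09 and gave 672 higher and 929 lower genes, so that higher genes made up 42.0% of the genes past 2-fold in place of 17.8%. That share was 32.8% with totals free of mitochondrial, ribosomal and Paneth genes, 34.4% without Paneth range cells, 31.0% under stricter limits on detected genes and mitochondrial share, 51.7% without cells holding 3 UMIs of genes of G2 and mitosis, and 38.7% in the remaining cells. In the remaining cells alone the median was -0.09, with 530 of 7420 genes (7.14%) higher and 838 (11.3%) lower.

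The 15 genes with the highest ratio, among those with 200 UMIs and a UMI in 10% of cells, were Zg16, S100a6, Anxa3, Clu, Ly6a, Ly6d, Defa34, Crip2, Phlda3, Serpinb5, Sprr2a3, Gsn, S100a14, Fcgbp and Mboat1. Zg16 and Fcgbp are goblet products, Defa34 is a Paneth defensin, Phlda3 is a p53 target, and 5 (S100a6, Anxa3, Clu, Ly6a, Crip2) belong to the list for regenerating epithelium. The 15 lowest were Car4, Olfm4, Gsdmc4, Dmbt1, Hist1h1b, Arg2, Apol10a, Adh6a, H2-Aa, Hist1h2ab, Reg1, H2-DMa, H2-Ab1, Nme2 and Gstm3. They include a stem cell marker (Olfm4), replication-dependent histones (Hist1h1b, Hist1h2ab), MHC class II genes (H2-Aa, H2-Ab1, H2-DMa) and products of absorptive cells such as Car4, a carbonic anhydrase. Each of these 30 genes kept its direction under every alternative processing that could measure it. At their weakest, Fcgbp and Zg16 fell to log2 ratios of 0.095 and 0.59 and Reg1 to -0.85, within 2-fold. The others stayed past 2-fold in each. Ly6d was detected in 15 of 113 irradiated cells, and 52% of its irradiated UMIs came from 1 cell. The level of Nme2 is uncertain, since it has a near-identical copy elsewhere in the genome.

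**Figure D2:**
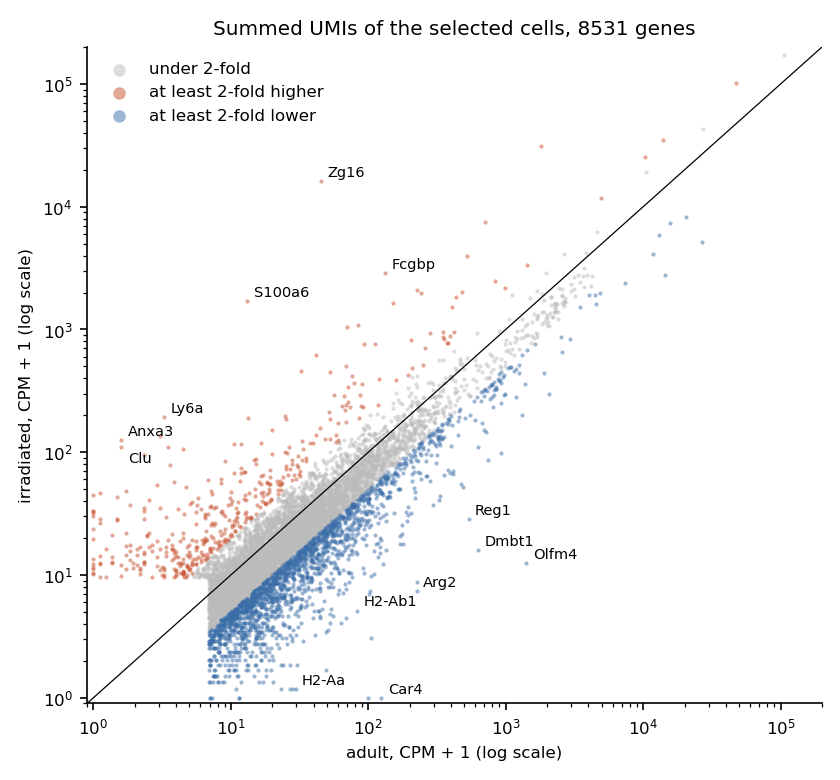
Level of each of 8531 genes in the summed adult cells (horizontal) and irradiated cells (vertical), as CPM + 1 on log axes, 1 point per gene; the line marks equal levels. Genes at least 2-fold lower outnumber those at least 2-fold higher (1895 against 411), and Zg16, S100a6, Olfm4 and Car4 lie far from the line.

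p53 targets that arrest the cycle or feed back on p53 were higher in the irradiated cells. Of the list's 24 genes, 21 were measured, 14 were at least 2-fold higher (background 4.82%) and 2 at least 2-fold lower (background 22.2%), with a median log2 ratio of 1.94 against -0.49 for all genes. Among remaining cells, 14 of 17 were higher (background 7.14%) and 1 lower, with a median of 3.12. Cdkn1a, which encodes the cyclin-dependent kinase inhibitor p21, was at 75.2 CPM in the adult cells (628 UMIs) and 419.6 CPM in the irradiated cells (2438 UMIs). It had a UMI in 129 of 228 adult and 110 of 113 irradiated cells; the lowest, median and highest cell stood at 0, 19.1 and 2385 CPM in the adult and at 0, 414 and 2322 CPM in the irradiated library, so the ranges overlapped fully while the medians lay far apart. The log2 ratio was 2.46 (2.35 to 2.61). Phlda3, an inhibitor of Akt signalling, was at 2.51 CPM in the adult and 109 CPM in the irradiated cells, with a UMI in 15 and 92 cells and highest cells at 51.8 and 784 CPM. Its log2 ratio of 4.97 (4.82 to 6.15 for the ratio without the added 1) was the largest of the list.

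Among the feedback regulators, Mdm2, the ubiquitin ligase that degrades p53, was at 11.4 CPM in the adult and 67.5 CPM in the irradiated cells, and Ccng1 (cyclin G1) at 23.7 and 196 CPM. Ccng1 was detected in 98 of 228 adult and 101 of 113 irradiated cells, with a median cell at 0 and at 168 CPM. Ddit4l was at 0.718 and 21.0 CPM, Plk2, a polo-like kinase, at 7.42 and 55.6 CPM, Zmat3, an RNA-binding protein, at 4.55 and 31.7 CPM, and Gdf15, a secreted stress cytokine, at 13.6 and 86.0 CPM. All 6 lay past 2-fold. Dcxr, Psrc1, Trp53inp1, Sesn2, Polk and Gtse1 were the other 6 past 2-fold, with log2 ratios from 1.06 to 2.28. The exceptions were Sesn1, at 14.5 CPM in the adult and 2.58 CPM in the irradiated cells, and Ddb2, a DNA damage sensor, at 7.18 and 1.89 CPM. Btg2, Ppm1d, Ckap2, Xpc and Rps27l were within 2-fold.

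p53 targets of the apoptotic arm were also higher where they passed 2-fold. Of 14 genes, 11 were measured, 5 were at least 2-fold higher and 0 lower (backgrounds 4.82% and 22.2%), with a median of 0.97. Bax, which permeabilises mitochondria, was at 90.9 CPM in the adult and 232 CPM in the irradiated cells (log2 ratio 1.34, 1.22 to 1.48), and Bbc3 (PUMA), its upstream activator, at 5.63 and 21.7 CPM. The death receptor gene Eda2r was at 1.32 and 14.3 CPM, Aen, a nuclease, at 21.0 and 48.0 CPM, and Perp, a junctional protein, at 57.6 and 136 CPM. Pmaip1 (NOXA) and Apaf1 were at 24.9 and 27.7 CPM and at 8.62 and 9.64 CPM. Of 8 genes measured in the remaining cells 6 were higher (background 7.14%), with a median of 1.70.

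Promoters are shown because several of these genes moved together and p53 binds a known DNA element made of a pair of 10-base sites. The set of RefSeq promoters searched (GRCm38.p6, from 250 bases before to 50 after each start) did not cover every chromosome. It held promoters of 19 of the 24 arrest and feedback genes and 11 of the 14 death genes. A gene missing from the set may still have a RefSeq promoter. The p53 response element was searched by its consensus on both strands (the consensus is its own reverse complement), as a pair at most 1 base apart. The core C and G of each site had to match, and at most 2 departures were allowed over the other bases of the pair. Such a pair was held by 5 of the 19 and 1 of the 11 genes, and by 218 of 27025 genes of the same promoter set (0.807%, or 0.682% of its 32851 promoters). Both lists were chosen as p53 targets, so these shares are no test of p53 binding. Gtse1, past 2-fold, and Ckap2, within it, are among the genes with a pair but are not shown. Genes can have more than 1 RefSeq start: the set held 29 promoters for the 19 arrest and feedback genes. The 4 sequences below are the 250 bases before the start whose promoter carried the pair, 5′ to 3′ on the gene's strand. That start need not be the main start of the gene. The matched pair is in capitals, for 3 genes past 2-fold (Cdkn1a, Ccng1, Bax) and 1 within it (Rps27l). A match describes letters, not occupancy.
Cdkn1a, chr17:29090729-29090978, + strand: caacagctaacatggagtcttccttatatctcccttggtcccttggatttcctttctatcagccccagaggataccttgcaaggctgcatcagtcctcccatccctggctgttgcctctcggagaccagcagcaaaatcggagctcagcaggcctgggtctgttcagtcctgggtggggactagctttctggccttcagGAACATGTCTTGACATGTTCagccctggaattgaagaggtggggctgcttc
Ccng1, chr11:40755287-40755536, - strand: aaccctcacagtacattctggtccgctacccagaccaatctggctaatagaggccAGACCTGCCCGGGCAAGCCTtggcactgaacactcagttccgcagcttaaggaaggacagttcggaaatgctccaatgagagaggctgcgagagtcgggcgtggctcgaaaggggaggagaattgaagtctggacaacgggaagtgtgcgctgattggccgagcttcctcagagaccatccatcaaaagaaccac
Bax, chr7:45466899-45467148, - strand: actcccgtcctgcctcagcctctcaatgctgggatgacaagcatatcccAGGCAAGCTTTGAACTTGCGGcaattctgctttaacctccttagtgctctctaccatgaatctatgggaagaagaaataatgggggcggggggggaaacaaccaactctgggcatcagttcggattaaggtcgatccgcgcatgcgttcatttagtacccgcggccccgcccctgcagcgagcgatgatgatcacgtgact
Rps27l, chr9:66946163-66946412, + strand: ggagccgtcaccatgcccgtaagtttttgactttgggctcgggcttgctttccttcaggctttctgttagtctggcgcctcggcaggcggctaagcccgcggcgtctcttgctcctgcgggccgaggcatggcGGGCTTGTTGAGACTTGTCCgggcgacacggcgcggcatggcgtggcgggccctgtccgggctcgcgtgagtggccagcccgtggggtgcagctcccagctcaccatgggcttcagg
Counted from the start used here, the pair lay 51 to 32 bases before it in Cdkn1a, 195 to 176 in Ccng1, 201 to 181 in Bax and 117 to 98 in Rps27l. Its distance from other starts of the same gene was not examined. The pair may therefore not lie next to the start most used in these cells. The pair departed from the consensus at 1 base in Cdkn1a, Ccng1 and Rps27l and at 2 bases in Bax. Rps27l, a ribosomal protein paralogue, was at 613 CPM in the adult and 929 CPM in the irradiated cells, and in the remaining cells at 850 and 1964 CPM. Phlda3 and Mdm2, both past 2-fold, held no such pair in this window.

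Genes of regenerating epithelium had the highest median ratio of the lists. Of 30 genes, 23 were measured, 19 were at least 2-fold higher and 0 lower (backgrounds 4.82% and 22.2%), with a median log2 ratio of 3.30. In the remaining cells 19 of 22 were higher (background 7.14%), with a median of 4.23. S100a6, a calcium-binding protein, was at 12.2 CPM in the adult (102 UMIs in 50 cells) and 1711 CPM in the irradiated cells (9944 UMIs in 95 cells). Its lowest, median and highest cell stood at 0, 0 and 488 CPM in the adult and at 0, 978 and 9497 CPM in the irradiated library, a log2 ratio of 7.02 (6.85 to 7.43). S100a6 is not silent elsewhere in the adult library: cells with Chga and Chgb at 1% or more of UMIs, which the limits leave out, held it at 1788 CPM in the adult and 1311 CPM in the irradiated library.

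Ly6a, the surface protein Sca-1, was at 2.27 CPM in the adult (19 UMIs in 13 cells) and 192 CPM in the irradiated cells (1114 UMIs in 50 cells). Clu (clusterin), a secreted chaperone, was at 0.599 CPM (5 UMIs in 3 cells) and 110 CPM (641 UMIs in 38 cells), and 20% of the irradiated UMIs came from 1 cell. The annexins, membrane-binding proteins, were higher throughout: Anxa3 was at 0.599 and 124 CPM, Anxa2 at 112 and 756 CPM, Anxa5 at 8.14 and 83.3 CPM. Anxa1 and Anxa10 had no UMI in the adult cells and 133 and 109 UMIs in the irradiated cells, at least 63.7-fold and 52.2-fold higher against a floor of 3 UMIs. Il1rn, an interleukin-1 antagonist, had 0 and 180 UMIs, at least 86.2-fold higher, and Il33, an alarmin, was at 1.32 and 34.2 CPM. Lamb3, a laminin chain, was at 4.55 and 14.97 CPM. Cyr61 and Edn1, targets of the YAP coactivator, did not share the direction of the others: they were at 50.3 and 29.3 CPM and at 38.7 and 22.5 CPM.

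Per cell, the list took a median of 0.143% of UMIs in the adult and 0.613% in the irradiated library. The highest adult cell reached 0.669%, and 54 of 113 irradiated cells lay above it, up to 4.39%. By range, the median was 1.83% in irradiated remaining cells against 0.188% in adult ones, 0.783% in irradiated goblet range cells, and 0.0415% against 0.0336% in Paneth range cells. The p53 arrest list took medians of 0.483% against 0.149% in remaining cells and 0.131% against 0.0558% in Paneth range cells.

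**Figure D3:**
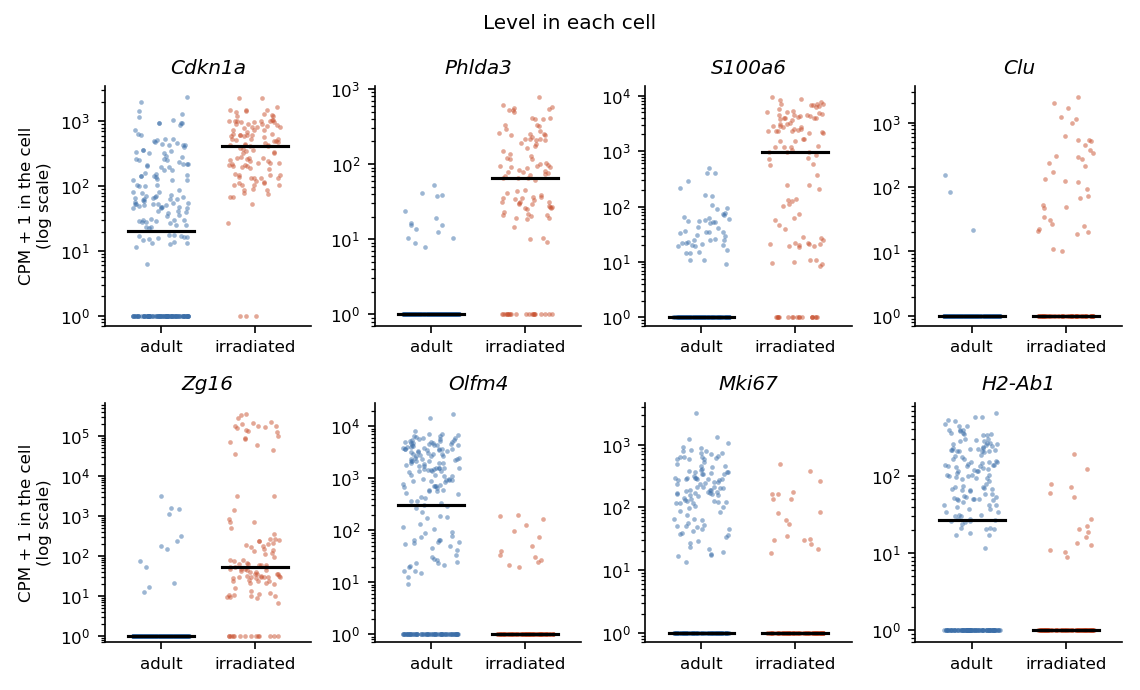
CPM + 1 of 8 genes in every selected cell (1 point per cell, log axis, bar at the median of 228 adult and 113 irradiated cells). The irradiated medians of Cdkn1a, Phlda3, S100a6 and Zg16 lie above the adult ones, Clu was detected in 38 of 113 irradiated cells, and Olfm4, Mki67 and H2-Ab1 were detected in 14, 19 and 16 of them against 152, 110 and 127 of 228 adult cells.

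Keratins and some junction genes were higher as well. Of 24 genes, 23 were measured, 9 were higher and 1 lower (backgrounds 4.82% and 22.2%), with a median of 0.14. In the remaining cells 10 were higher and 1 lower (backgrounds 7.14% and 11.3%). The simple-epithelium keratins Krt8, Krt18 and Krt19 were at 1424, 434 and 981 CPM in the adult and at 3331, 1855 and 2191 CPM in the irradiated cells, and Krt7 and Krt23 at 70.2 and 3.71 against 340 and 51.1 CPM. Among claudins, which set the permeability of tight junctions, Cldn4 was at 14.1 and 86.9 CPM and Cldn2 at 59.3 and 173 CPM, whereas Cldn15 was at 223 and 85.7 CPM. The integrin chain Itgb4 was at 15.4 and 62.5 CPM and Lgals3, galectin-3, at 78.2 and 367 CPM. Cdh1, Cldn7, Dsp and Epcam were within 2-fold. Of 8 measured EGF ligands and receptors, 2 ligands were higher and 1 receptor lower (backgrounds 4.82% and 22.2%), so the lower count is not above the background. Areg (amphiregulin) was at 24.3 and 186 CPM, Btc (betacellulin) at 3.11 and 33.2 CPM, and Erbb3 at 51.7 and 22.9 CPM. Egfr itself was at 10.3 and 13.4 CPM. In the Paneth range Areg was at 8.87 and 8.25 CPM, and in the remaining cells at 30.7 and 488 CPM.

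Cycle genes were lower in the irradiated cells. All 20 S phase genes and all 15 genes of G2 and mitosis were measured and at least 2-fold lower (background 22.2%), with medians of -1.77 and -2.27. With TMM factors 18 of 20 and 13 of 15 were lower (background 10.9%). In the remaining cells 13 of 20 and 10 of 15 were lower (background 11.3%), with medians of -1.10 and -1.54. Mki67, the proliferation antigen, was at 177 CPM in the adult and 16.9 CPM in the irradiated cells, with a UMI in 110 of 228 and 19 of 113 cells. Top2a, topoisomerase II, was at 189 and 26.5 CPM, the replicative helicase subunit Mcm6 at 54.6 and 8.26 CPM, and Pcna, the polymerase clamp, at 79.6 and 18.4 CPM. Ube2c and Cdc20, of the anaphase-promoting system, differed least, at 218 and 102 CPM and at 40.2 and 15.7 CPM.

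Cells with at least 3 UMIs of the G2 and mitosis list were counted as cycling after every cell had been thinned at random to 2000 UMIs, since depth differed. They made up 57 of 199 adult cells (28.6%, 22.5% to 35.5%) and 11 of 111 irradiated cells (9.91%, 5.05% to 17.04%); 29 adult and 2 irradiated cells were too shallow and were left out. Without thinning the shares were 54.4% and 27.4%. Split by range in the same thinned counts, the remaining cells held 53 cycling cells of 110 in the adult (48.2%, 38.6% to 57.9%) and 11 of 38 in the irradiated library (28.9%, 15.4% to 45.9%), intervals that overlap. As background, cells with Chga and Chgb at 1% or more of UMIs, which are largely postmitotic, gave 0.746% of 804 adult and 0.291% of 1374 irradiated cells (median depths 6414.5 and 9331 UMIs). In the Paneth range 4 of 55 adult cells and 0 of 45 irradiated cells were counted as cycling, which allows a share of up to 6.67% by the level of 3 cells, or 7.87% by the exact interval.

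DNA repair genes were lower: 17 of 22 measured genes were at least 2-fold lower and 0 higher (backgrounds 22.2% and 4.82%), with a median of -1.35. With TMM factors 9 were lower (background 10.9%), and in the remaining cells 8 of 21 (background 11.3%, list median -0.95). Once all cells with 3 cycling UMIs were left out only 1 gene could be measured. Brca2, which loads the recombinase, was at 18.7 CPM in the adult and 1.55 CPM in the irradiated cells, H2afx, the histone phosphorylated at breaks, at 104 and 24.8 CPM, and the damage kinases Atm and Chek1 at 15.3 and 3.79 CPM and at 10.8 and 2.58 CPM. The end-joining gene Xrcc5 (Ku80) and Trp53bp1 were at 9.82 and 6.71 CPM and at 8.26 and 6.54 CPM, within 2-fold.

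Crypt stem cell genes were lower on balance but not uniformly. Of 17 measured, 9 were lower (background 22.2%), 1 was higher (background 4.82%) and 7 lay within 2-fold, with a median of -1.13. Olfm4, a secreted stem cell marker, was at 1414 CPM in the adult cells (11815 UMIs) and 11.5 CPM in the irradiated cells (67 UMIs). It was detected in 152 of 228 adult and 14 of 113 irradiated cells, and the highest cell reached 17564 CPM in the adult and 194 CPM in the irradiated library, a log2 ratio of -6.82 (-7.31 to -6.59). Lgr5, a receptor of the Wnt pathway that marks the same cells, differed far less, at 23.5 and 7.92 CPM (196 and 46 UMIs). The Wnt target Axin2 was at 37.2 and 7.74 CPM, Ascl2, the stem cell transcription factor, at 29.5 and 11.2 CPM, and Smoc2 at 70.0 and 19.3 CPM. Sox9 was at 69.1 and 92.8 CPM, and the adhesion receptor Cd44 was higher, at 26.0 and 71.9 CPM. In the remaining cells 6 of 16 were lower and 1 higher (backgrounds 11.3% and 7.14%), with a median of -0.57. Without cells holding 3 cycling UMIs 3 of 11 were lower and 3 higher (backgrounds 10.7% and 11.5%), with a median of 0.18.

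**Figure D4:**
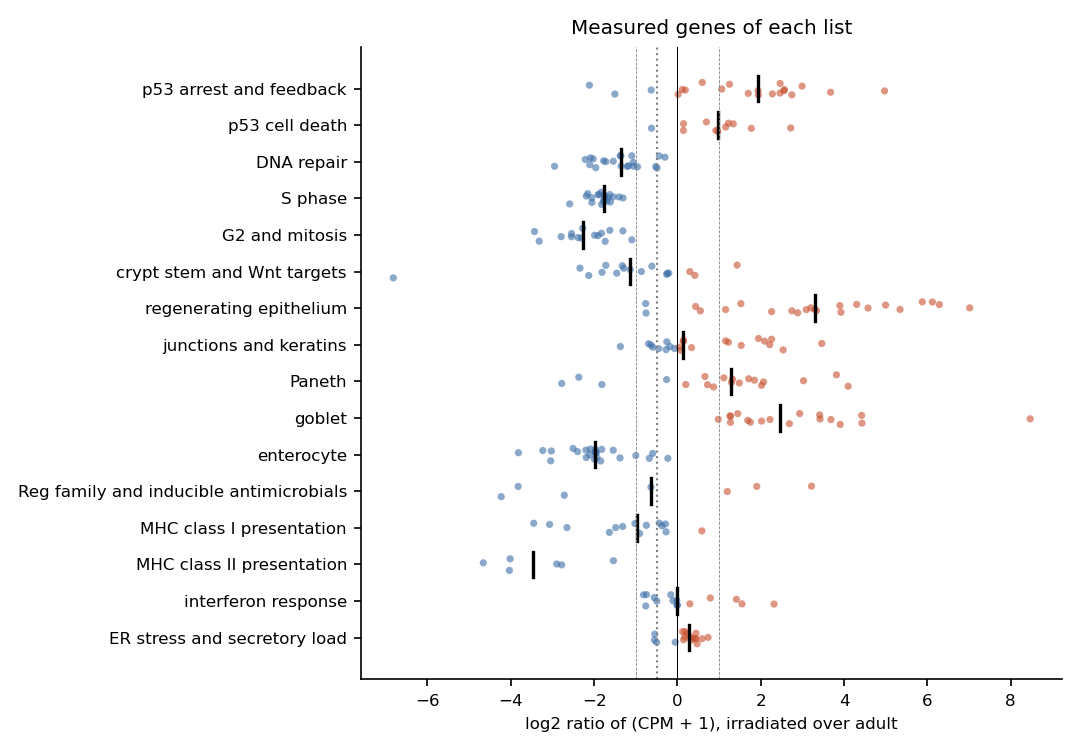
log2 ratio of (CPM + 1), irradiated over adult, of every measured gene in 16 lists (1 point per gene; black bar, list median; dotted line, median of all genes at -0.49; dashed lines, 2-fold). Lists for p53 targets, regenerating epithelium, Paneth and goblet cells lie to the right, and those for the cell cycle, DNA repair, enterocytes and MHC class II to the left.

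Goblet genes were higher in the irradiated cells: 17 of 18 passed 2-fold (background 4.82%), with a list median of 2.46. The 18th, Galnt12, was at 23.5 and 47.3 CPM. Zg16, a lectin-like granule protein, was at 44.7 CPM in the adult (373 UMIs in 13 cells) and 16182 CPM in the irradiated cells (94030 UMIs in 99 cells), a log2 ratio of 8.47. Muc2, the gel-forming mucin, was at 151 and 1632 CPM, Tff3, the trefoil peptide secreted with it, at 707 and 7559 CPM, Clca1 at 83.4 and 1086 CPM, and Guca2a (guanylin) at 69.0 and 1050 CPM. Leaving out the goblet range, which is defined by these genes and so must lower them, gave a list median of 0.87. There 8 of 16 genes were higher and 1 lower (backgrounds 3.74% and 24.8%). In the Paneth range 9 of 14 were higher and 0 lower (backgrounds 10.5% and 13.3%), and in cells with the 4 tuft genes at 0.2% or more of UMIs 7 of 8 were higher (background 1.45%). In the remaining cells the median was -0.080, with 3 of 14 genes higher (Fxyd3, Tff3 and S100a14) and 5 lower (backgrounds 7.14% and 11.3%). Zg16 was at 70.0 and 108 CPM in the remaining cells. Low Zg16 was spread over the irradiated library: its median selected cell held 51.6 CPM, and cells with Chga and Chgb at 1% or more held 982 CPM in the irradiated against 1.91 CPM in the adult library. The part of free RNA in this was not tested. In bulk sums such as these, more cells of a kind and more RNA per cell cannot be told apart, and the adult library offers only 2 cells of the goblet range for a comparison within it.

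Paneth genes were split. Of 19 measured, 11 were higher (background 4.82%), 3 lower (background 22.2%) and 5 within 2-fold, with a median of 1.30. The lower count is thus not above the background. In the Paneth range alone 6 were higher and 4 lower (backgrounds 10.5% and 13.3%), with a median of 0.54. Lyz1, lysozyme, was at 14036 CPM in the adult and 35137 CPM in the irradiated cells, and in the Paneth range at 39333 and 60760 CPM. Mmp7, the protease that activates defensins, was at 480 and 2019 CPM, and Itln1, an intelectin, at 10310 and 25330 CPM. Defensins went opposite ways: Defa17 was at 26686 and 5172 CPM, Defa3 at 2925 and 832 CPM, whereas Defa23 was at 31.2 and 454 CPM, Defa21 at 240 and 1965 CPM, and the defensin gene Gm14851 at 1816 and 31147 CPM. Within the Paneth range Defa17 was at 74312 and 8944 CPM and Gm14851 at 5071 and 55300 CPM. Defensin genes are near-identical copies between which reads may be split, so these opposite values are uncertain as gene levels. In the remaining cells, where Paneth RNA is a trace, 11 of 13 genes were lower (background 11.3%).

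Of 9 measured Notch and secretory fate genes, 3 were higher and 2 lower; the lower share equals that of all genes (22.2%). Atoh1, the master factor of the secretory lineage, was at 11.6 CPM in the adult and 43.7 CPM in the irradiated cells, Spdef, which matures goblet and Paneth cells, at 13.9 and 43.4 CPM, and the Notch ligand Dll4 at 3.83 and 10.8 CPM. The receptor Notch1 and its feedback target Nrarp were at 24.2 and 10.3 CPM and at 14.7 and 6.71 CPM, and Hes1, the Notch target that represses Atoh1, at 87.4 and 44.7 CPM, within 2-fold. None of the 5 genes of this list measured in the remaining cells passed 2-fold.

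Enterocyte genes were lower: 20 of 24 measured, with 0 higher (backgrounds 22.2% and 4.82%) and a median of -1.97. Apoc3, an apolipoprotein, was at 103 and 6.37 CPM, Mttp, which loads chylomicrons, at 169 and 19.6 CPM, Fabp1, a fatty acid carrier, at 2582 and 649 CPM, and Alpi, brush-border alkaline phosphatase, at 45.4 and 10.8 CPM. In the irradiated library these transcripts rested on few cells: 1 cell held 76% of the UMIs of Fabp1, 93% of those of Apoa4 and 97% of those of Lct. Of 16 measured in the remaining cells 9 were lower (background 11.3%) and 1, Apob, was higher (background 7.14%). Car4 had 1032 UMIs in 104 adult cells and 0 UMIs in the irradiated cells, at least 239-fold lower against 3 UMIs, and Gsdmc4, a pore-forming gasdermin, 825 UMIs in 75 adult cells and 0, at least 191-fold lower. Dmbt1, a mucosal scavenger protein, was at 629 and 14.97 CPM, and Arg2, mitochondrial arginase, at 225 and 6.37 CPM.

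Among secreted antimicrobial and Reg genes, 3 of 7 measured were higher and 3 lower (backgrounds 4.82% and 22.2%). Reg3g and Reg3b, lectins directed at Gram-positive and other bacteria, were at 224 and 2095 CPM and at 408 and 1531 CPM, and Reg4 at 417 and 958 CPM. Reg1 was at 538 CPM in the adult and 27.7 CPM in the irradiated cells (57% of the latter in 1 cell), but at 54.4 and 29.7 CPM in the remaining cells, within 2-fold there; Reg3a was at 49.7 and 2.58 CPM, and Pigr, the receptor that carries immunoglobulin A to the lumen, at 1311 and 199 CPM. In the Paneth range Reg3g stood at 150 and 3149 CPM, and in the remaining cells at 86.2 and 333 CPM. Pigr was detected in 208 of 228 adult and 99 of 113 irradiated cells, and the cell with the most held 2.78% of its adult and 6.40% of its irradiated UMIs.

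Antigen presentation was lower, MHC class II most of all. All 6 measured class II genes were lower (background 22.2%), with a median of -3.46, and 5 of 6 in the remaining cells (background 11.3%). H2-Ab1 was at 81.9 CPM in the adult (684 UMIs in 127 cells) and 4.13 CPM in the irradiated cells (24 UMIs in 16 cells). Its median cell stood at 26.2 and 0 CPM and its highest at 644 and 189 CPM. H2-Aa was at 28.6 CPM (239 UMIs) and 0.172 CPM (1 UMI), a log2 ratio of -4.66 with an interval from -12.69 to -4.89 for the ratio without the added 1. H2-Eb1 was at 54.2 and 7.06 CPM, and the invariant chain Cd74 at 70.8 and 23.7 CPM, with 64% of its irradiated UMIs in 1 cell. Of the immune markers, Adgre1, Csf1r and Ms4a1 had no UMI in the selected cells, while Cd68 was at 3.71 and 3.79 CPM, Lyz2 at 3.47 and 6.02 CPM and Itgam at 2.27 and 0.344 CPM, and their part in the class II levels was not tested. Of 14 measured class I genes, 7 were lower and 0 higher (backgrounds 22.2% and 4.82%). The lower ones were the immunoproteasome subunits Psmb9, Psmb8 and Psmb10 (117, 192 and 212 CPM in the adult; 13.1, 29.8 and 75.2 CPM in the irradiated cells), the activator subunits Psme1 and Psme2, and the nonclassical genes H2-T3 and H2-Q7. The classical heavy chains H2-K1 and H2-D1 were at 377 and 278 CPM and at 300 and 232 CPM, and B2m at 258 and 137 CPM, within 2-fold.

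Other stress programmes differed less. None of 18 measured genes of the endoplasmic reticulum stress and secretory load list passed 2-fold (median 0.27): the chaperone Hspa5 was at 519 and 586 CPM and Xbp1 at 93.3 and 126 CPM. In the Paneth range 6 of 17 were higher (background 10.5%). Of 15 measured interferon genes, 3 were higher and 0 lower (backgrounds 4.82% and 22.2%). The 3 were Cxcl10, Isg15 and Zbp1, each under 20 CPM in the irradiated cells. Irf1, an interferon-induced transcription factor, was at 50.9 and 28.6 CPM. Of 23 detoxification genes, 4 were higher and 7 lower, against 4.82% and 22.2% of all genes, so the lower count is near the background. Gpx2, a glutathione peroxidase of crypts, was at 831 and 2503 CPM, and the glutathione transferases Gsta4 and Gsta1 at 50.6 and 213 CPM and at 40.7 and 137 CPM, while Gstm3 was at 61.9 and 3.098 CPM. In the remaining cells 8 of 23 were higher and 1 lower (backgrounds 7.14% and 11.3%). Among 13 NF-kB and cytokine genes, Cxcl16, Icam1, Nfkb2 and Socs3 were higher (background 4.82%) and Ccl25, Ccl28, Il18 and Tgm2 lower (background 22.2%). Cxcl16, a transmembrane chemokine, was at 1.92 and 53.5 CPM, and Ccl25, which attracts lymphocytes to the small intestine, at 413 and 65.4 CPM.

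The same contrast was read in cells that the limits leave out, for the values side by side; the difference between populations was not tested. In 878 adult and 1571 irradiated cells with Chga and Chgb at 1% or more of UMIs, 298 of 11244 genes (2.65%) were higher and 165 (1.47%) lower. There 11 of 22 p53 arrest genes were higher: Phlda3 was at 1.33 and 91.6 CPM and Ccng1 at 19.1 and 186 CPM, while Cdkn1a already stood at 591 CPM in the adult and reached 1069 CPM in the irradiated library. Of the regenerating list 9 of 23 were higher and 1 lower (median 0.42 against 4.23 in the remaining cells), and 7 of 7 measured G2 and mitosis genes were lower, all at 28.7 CPM or less. In 842 adult and 132 irradiated cells with the 4 tuft genes at 0.2% or more of UMIs, 94 of 6475 genes (1.45%) were higher and 146 (2.25%) lower; Phlda3 was at 0.947 and 49.7 CPM, Ccng1 at 29.4 and 192 CPM and Cdkn1a at 241 and 732 CPM. In these tuft cells Ly6a was at 0.237 and 4.06 CPM and Clu at 0.474 and 4.06 CPM, against 2.71 and 573 CPM and 0.903 and 340 CPM in the remaining cells.

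**Figure D5:**
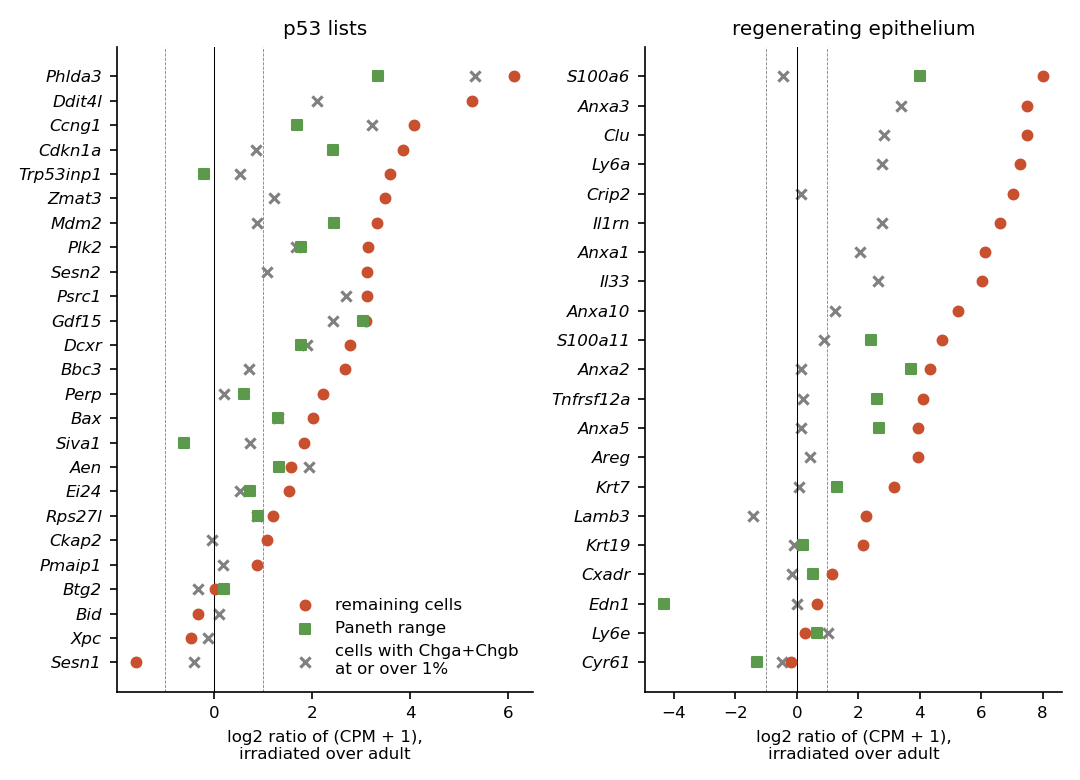
log2 ratio of (CPM + 1), irradiated over adult, of genes of the p53 lists (left) and the regenerating epithelium list (right) with at least 50 UMIs in the remaining cells of 1 library: circles, remaining cells; squares, Paneth range; crosses, cells with Chga and Chgb at 1% or more of UMIs. Phlda3 and Ccng1 are past 2-fold (dashed lines) in all 3 populations, whereas S100a6 is past it in the remaining and Paneth range cells only.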

How the data were processed

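Single-cell RNA libraries (10x Chromium 3' v3) were made by the authors. Per the submitters' processing notes, Cell Ranger 3.1.0 and the mm10 build were used; the deposited matrices hold raw UMI counts per gene and cell barcode. From these counts, cells were selected by the 5 limits given above, UMIs were summed per gene over cells and scaled to counts per 1000000 UMIs (CPM), and log2 ratios were taken after adding 1 CPM. A gene was measured with at least 50 UMIs in the library with more, and called at 2-fold. With 1 library per group no test was made; intervals are exact Poisson-based (conditional binomial) for ratios and Clopper-Pearson for shares, at 95%, and cover counting error only. The members and the 32 gene lists were chosen with earlier results of these data known. Genes named are the 15 highest and 15 lowest ratios among genes with at least 200 UMIs and a UMI in at least 10% of cells, leaving out mitochondrial, ribosomal, haemoglobin, immunoglobulin, sex-linked and predicted genes, and list members past 2-fold or with the most UMIs. The ranges other than Paneth were set after seeing the data. Doublets were not removed: Scrublet called 3 adult and 1 irradiated cell by itself, under 0.5% of cells and so not a working call, and leaving out the highest scores at a fixed rate took 5 and 1 of the selected cells. Alternatives covered the cell limits, scaling (TMM from edgeR 4.0.16, R 4.3.3), pseudocount, UMI minimum and thinning. The computation, tested on simulated data, ran under Python 3.11.15 with scanpy 1.11.5, pandas 2.3.3, scipy 1.17.1 and numpy 2.4.6. Promoter sequences are from RefSeq, GRCm38.p6. Some list members are counted but not reported here by name.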

Additional observations from a re-analysis of the deposited data

How the results depend on the processing

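Of the counts, list medians and cell shares recomputed under the alternatives, 476 values stayed within the stated spread or 1.5 times the count, 85 moved and 4 changed sign; of the 30 named genes' values, 305 stayed, 238 moved and 0 changed sign. The Paneth list median changed sign without Paneth range cells and in the remaining cells, and the goblet list median in the remaining cells. The stem list median changed sign without cells holding at least 3 unthinned UMIs of the G2 and mitosis list. The cause was not tested. With at least 1000 genes and at most 10% mitochondrial UMIs, 949 genes were lower and list medians were -1.64 (S phase), -1.56 (G2 and mitosis), -2.21 (enterocyte), 0.69 (ER stress) and -0.084 (lipid). Without a mitochondrial limit, the list median was -1.39 (enterocyte). With none of the 4 tuft genes detected, 1009 genes were lower and list medians were -1.08 (S phase), -1.72 (G2 and mitosis), -2.63 (enterocyte), -0.62 (interferon), -0.042 (heat shock) and -0.15 (Polycomb). Without Paneth range cells, 1032 genes were lower and list medians were 2.83 (p53 arrest), -0.97 (DNA repair), -1.31 (S phase), -0.79 (Paneth), -1.45 (enterocyte), 0.089 (heat shock) and 0.15 (lipid). Leaving out cells with at least 3 unthinned UMIs of the G2 and mitosis list kept 104 adult and 82 irradiated cells. In these, 488 genes were lower and list medians were 2.79 (p53 arrest), 0.18 (stem), -2.93 (enterocyte), 0.076 (heat shock), 0.59 (ER stress), 0.10 (lipid) and 0.085 (Polycomb). With the tuft limit as a share, list medians were -1.61 (S phase), -1.61 (enterocyte) and 0.056 (ER stress). Without goblet range cells, list medians were -1.63 (S phase), 0.87 (goblet) and -0.17 (ER stress). In the remaining cells, 838 genes were lower and list medians were 3.12 (p53 arrest), -0.95 (DNA repair), -1.10 (S phase), -1.54 (G2 and mitosis), -2.64 (Paneth), -0.080 (goblet), -1.25 (enterocyte), -0.34 (ER stress), 0.53 (detoxification) and -0.058 (lipid). With CPM averaged over cells, list medians were -1.64 (S phase), 0.043 (lipid) and -0.66 (enteroendocrine). With TMM factors, 672 genes were higher and 929 genes were lower and list medians were -0.96 (DNA repair), -1.38 (S phase), -1.57 (enterocyte), 0.067 (heat shock), 0.69 (ER stress), -0.071 (lipid) and -0.46 (regional). With a pseudocount of 10 CPM, 239 genes were higher and 757 genes were lower and list medians were -0.70 (DNA repair), -1.29 (S phase), -1.46 (G2 and mitosis), 2.03 (regenerating) and -1.50 (enterocyte). With a minimum of 10 UMIs, 704 genes were higher. With a minimum of 200 UMIs, 189 genes were higher and 991 genes were lower and the list median was -0.63 (interferon). With cells thinned to 2000 UMIs, 63 genes were higher and 206 genes were lower and list medians were -3.43 (G2 and mitosis) and 4.37 (goblet). With mitochondrial, ribosomal and Paneth genes out of the totals, 1213 genes were lower and list medians were -1.55 (S phase), -1.70 (enterocyte), -0.044 (heat shock) and 0.58 (ER stress). The adult Paneth range share was 42.1% under the stricter limits, 15.6% without a mitochondrial limit and 18.5% with no tuft gene, and the irradiated one 27.1% without a mitochondrial limit. The adult cycling share was 38.2% at 2 UMIs, 19.1% at 5 UMIs, 15% thinned to 1000 UMIs and 54.4% unthinned, and the irradiated one 3.6% at 5 UMIs and 27.4% unthinned. The alternatives on the tuft share, on goblet and hormone range cells and on the remaining cells were chosen after seeing the data. The alternative with no Chga or Chgb UMI was not run, since it leaves 24 adult and 0 irradiated cells. No paired analysis was possible because each group has 1 library. With 1 library per group, leaving out a replicate was not possible either. Depth limits low genes: by the level of 3 UMIs, a gene with 0 UMIs may have been present at up to 0.359 CPM (adult) and 0.516 CPM (irradiated).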

Other observations

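The genes in this section were chosen after their values were seen. Nlrp6 and Pycard, parts of an epithelial inflammasome, were at 109 and 921 CPM in the adult and at 9.12 and 97.2 CPM in the irradiated cells. Vdr, the vitamin D receptor, was at 99.8 and 6.02 CPM, and Cdx2, the intestinal identity factor, at 98.0 and 41.5 CPM. Bmi1, the gene that carries the reporter, was at 4.19 CPM in the adult cells (35 UMIs) and 3.96 CPM in the irradiated cells (23 UMIs). The reporter transcript eGFP was at 0.599 CPM (5 UMIs in 5 of 228 cells) and 6.37 CPM (37 UMIs in 30 of 113 cells), and at 2.06 and 14.5 CPM in cells with Chga and Chgb at 1% or more of UMIs.

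Genes with near-identical copies elsewhere in the genome, whose levels are uncertain, also gave large ratios. Rpl10 was at 91.7 CPM in the adult and 755 CPM in the irradiated selected cells, and differed in the same direction in cells with Chga and Chgb at 1% or more of UMIs. Nme2 was at 67.4 and 3.44 CPM while its neighbour Nme1 was at 397 and 421 CPM. Nme2 was lower in the cells with Chga and Chgb at 1% or more as well, at 22.8 and 2.95 CPM. Under the same limits, the libraries of embryonic day 12.5 and 17.5 held Rpl10 at 1823 and 137 CPM and Nme2 at 6.15 and 106 CPM. Both genes thus also differed widely between libraries without irradiation in their labels, and the cause was not tested.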
